A study of Mus musculus with 7 samples.

Results

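Cxcl9-negative C1q cells were 549 of the 51795 cells kept from 7 droplet single-cell RNA libraries of mouse brain tumours. They were chosen by their own UMIs (unique molecular identifiers, each marking 1 captured RNA molecule). To be kept, a cell needed 1000 UMIs and 500 genes or more, and mitochondrial UMIs of 15% or less. A member also had at least 5 UMIs of C1qa, C1qb and C1qc together and no UMI of the microglia genes P2ry12, Tmem119 and Sall1, of the T cell genes Cd3d, Cd3e and Cd3g, or of the chemokine gene Cxcl9. These 10 genes set the membership, so their levels are given as a description only. Just under the C1q threshold, with the other conditions met, 304 cells had 3 C1q UMIs and 119 had 4. Just above it, 55 had 5, 26 had 6 and 31 had 7.

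C1qa, C1qb and C1qc encode the 3 chains of the first complement component, which tissue macrophages and microglia make in large amounts. In the brain, macrophages of the meninges, the perivascular spaces and the choroid plexus carry genes such as Mrc1, Lyve1 and Pf4, while microglia carry P2ry12 and Tmem119. Macrophages in tumours can take up matrix-degrading and repair programmes (Spp1, Arg1, matrix metalloproteinases) or lipid-handling programmes (Apoe, Trem2, Gpnmb, Fabp5). They can divide in place or arise from blood monocytes, which carry Ly6c2 and Ccr2. Cxcl9 is a chemokine gene that interferon gamma switches on, and its product draws T cells.

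The tumours came from NSCG-mCherry, a glioma line with EGFRvIII and without Arf/Ink4a, implanted into C57BL/6 mice of 7 to 10 weeks and collected whole at about day 14. Every library pooled at least 2 mice of a group and is 1 replicate, so that variation between mice was not measured. The IgG group (2 libraries) received IgG2b isotype control at 10 mg/kg. The BP group (2 libraries) received B20, an antibody to VEGF, at 5 mg/kg with an antibody to PD-L1 at 10 mg/kg. BPI (1 library) received the BP antibodies and, by daily gavage at 10 mg/kg, the PI3K delta and gamma inhibitor IPI-145. Antibodies were injected every 3 days for 3 rounds. CD40 (1 library) received 2 doses of 100 µg of a CD40 agonist 5 days apart, and the labels do not settle whether a dendritic cell vaccine was added. UT (1 library) was untreated. One IgG arm also had the gavage diluent, and the labels do not say which. By the labels all groups carry the same line.

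Total depth ran from 68997476 to 186793886 UMIs, and 5626 to 10539 cells were kept per library. The library numbers in the deposited names fall into 4 runs, here called sets: IgG replicate 1, BP replicate 2 and BPI in set A, CD40 and IgG replicate 2 in set B, BP replicate 1 alone in set C and UT alone in set D. Treated and IgG libraries therefore meet within a set only in sets A and B, 1 library of a group each. In UT the members had no Xist UMI, against 22 to 834 in the other libraries, and Gm42418 took 0.0070% of member UMIs against 0.567% to 3.22%. The hosts' sex is not stated. Eif2s3y, a gene of the Y chromosome, was at 49.9 CPM in all kept cells of UT, tumour cells included. It was at 26.7 CPM in IgG replicate 2, 35.6 in BP replicate 1 and 22.2 in CD40, and at 0 to 0.0917 in the set A libraries. Replicates of a group thus differed in this gene, and the part of host sex in the contrasts was not tested. Any pair of libraries shared 0 to 26 barcodes of kept cells, at most 0.384%.

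Membership was uneven. IgG replicates 1 and 2 held 21 and 28 members, BP replicates 1 and 2 held 331 and 25, BPI 33, CD40 52 and UT 59, so that BP replicate 1 supplied 60.3% of all members. As shares of kept cells with exact 95% intervals (Clopper-Pearson, counting error only), this was 0.336% (0.208 to 0.513) and 0.350% (0.233 to 0.505) in IgG, 3.14% (2.82 to 3.49) and 0.416% (0.269 to 0.614) in BP, 0.469% (0.323 to 0.658) in BPI, 0.625% (0.467 to 0.819) in CD40 and 1.05% (0.799 to 1.35) in UT. Only BP replicate 1 and UT stood above 1%. With the rule applied to cells thinned to 1000 UMIs, the shares were 0.639% and 2.09% in IgG, 5.76% and 0.666% in BP, 0.839% in BPI, 2.88% in CD40 and 1.72% in UT, so that CD40 and IgG replicate 2 passed UT, while BP replicate 1 stayed highest and IgG replicate 1 lowest. At a minimum of 10 C1q UMIs, UT was at 0.622%. The BP mean was 1.78% ± 1.93 and the IgG mean 0.343% ± 0.00998 (SD, n = 2 each). This difference of 1.44 percentage points is given with no test, because the genes of the rule set the share. Without BP replicate 1 the difference was 0.073 points.

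Cxcl9 split the C1q cells of some libraries and not of others. Cells that met every other condition and had Cxcl9 UMIs numbered 0 in both IgG libraries, 362 and 12 in the BP libraries, 33 in BPI, 1 in CD40 and 115 in UT. With each cell thinned to 1000 UMIs, the share without Cxcl9 was 100% in both IgG libraries, 73.6% and 75.7% in BP, 57.6% in BPI, 98.1% in CD40 and 62.6% in UT. Both BP libraries were thus below both IgG libraries by 25.4 points on the mean, given with no test because Cxcl9 is part of the rule. The unthinned shares were 47.8% and 67.6% in BP, 50% in BPI and 33.9% in UT. In those 4 libraries the members are what remained after 12 to 362 Cxcl9-bearing cells were set aside. Members were the shallower cells there. Their median depth was 6275 and 5488 UMIs in BP, 4245 in BPI and 5823 in UT. The Cxcl9-bearing cells had 10352 and 6515 in BP, 5996 in BPI and 12636 in UT.

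The label was checked against macrophage genes. Members carried 9 macrophage genes other than C1q (among them Csf1r, Fcgr3, Mertk and Lyz2) at a summed 6037 and 11341 CPM (the share of member UMIs scaled to 1000000) in IgG, 7332 and 8846 in BP, 7595 in BPI, 9524 in CD40 and 1655 in UT. UT was the low one. In 79 of the 549 members the C1q genes made up less than 0.1% of the UMIs (18 of them in UT and 42 in BP replicate 1), and 16 had no UMI of 8 macrophage genes. Restricted to cells above that C1q share, the macrophage list stood at 7123 CPM in UT and 7990 to 13408 in the other libraries. Median depth was 6218 UMIs per member, from 1008 to 89421.

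Genes of other cells were present. A UMI of 7 tumour genes (such as Olig2, Sox2 and Egfr) was in 177 members, from 6.06% of BPI to 42.4% of UT, and a UMI of 6 further microglia genes (such as Gpr34 and Siglech) in 271, from 39.0% of BP replicate 1 to 82.1% of IgG replicate 2. In T cells of the same libraries (at least 3 Cd3 UMIs and no C1q UMI, 37 to 903 cells, median depth 2978 to 6278 UMIs), which should lack both, these shares were 8.11% to 19.2% and 5.35% to 21.4%. The tumour list summed to 46.5 CPM in BPI up to 631 CPM in UT, with 5 to 13 of its 13 genes detected. Endothelial genes reached 273 CPM, dendritic cell genes 265, neutrophil genes 108, T and NK cell genes 91.3 and erythroid genes 10.6. Ly6g, the defining neutrophil gene, Cd209a of dendritic cells, and Hba-a1 and Hba-a2 of red cells were at 0 in every library. By Scrublet score, 80 members were among the likely doublets. Because a part of the cells goes against the name macrophage, the set is called Cxcl9-negative C1q cells here.

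The C1q genes lie side by side on chromosome 4 (C1qb at 136880129 to 136886187, C1qc at 136889804 to 136893065 and C1qa at 136895917 to 136898803, GRCm38). C1qa was at 1248 and 2918 CPM in IgG, 2553 and 4067 in BP, 3031 in BPI, 1953 in CD40 and 1034 in UT. C1qb ran from 771 CPM in UT to 2435 in BP replicate 2, and C1qc from 597 in IgG replicate 1 to 1701 in BP replicate 2. BP replicate 2 was highest and UT or IgG replicate 1 lowest for each chain.

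Members fell into 10 clusters that followed the libraries closely. The clustering used all genes and is given as a description. Clusters 4, 5 and 7 (58, 55 and 45 cells) came from BP replicate 1 alone, and cluster 1 (99 cells) held 97 cells of it, so that these may be that library and not types of cell. Cluster 1 was led by Klk1, Ly6d, Ccr9, Mmp12, Siglech and Bcl11a, of which all but Mmp12 are known from plasmacytoid dendritic or lymphoid cells, so that the leading genes of this largest cluster go against the macrophage label. It had a median of 2599 UMIs, 16 likely doublets, and the macrophage list at 5460 CPM. Cluster 4 was led by Gm15056, Htr7, Ccl24, Pdcd1lg2 and Tgfbi. Cluster 5 was led by Chil3 (10423 CPM), Ear2, C3 and Pla2g2d. Its monocyte-derived list was at 12171 CPM, most of it Chil3, which is a gene of that list. Ly6c2, another gene of the list, was at 200 CPM in cluster 5, against 17.4 to 2006 in the other clusters. Cluster 7 was led by Retnla, Ccl8 (30206 CPM), Selenop, Pf4 and Folr2, with Mrc1 at 1603 CPM.

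Other clusters spanned libraries. Cluster 3 (60 cells) took 60% of the members of BP replicate 2 and 42.4% of BPI, with cells in every library, and was led by the monocyte genes Ms4a4c, Ly6c2 and Plac8 with the chemokine genes Cxcl2 and Ccl2. Cluster 8 (44 cells) took 39.3% of IgG replicate 2 and 38.5% of CD40 and was led by Fgf13, Lpl, Hspa1a, Spp1 (12897 CPM) and Gpnmb (1868 CPM), with the microglia list at 3708 CPM. Cluster 6 (55 cells, 29 of UT and 26 of BP replicate 1) was led by Cxcl13, Cst7 and Hmox1. Cluster 9 (40 cells) was led by Gm26917, Cmss1 and Gm42418 (72722 CPM) with Gpr34, at a low median depth of 1806.5 UMIs. Its microglia list was at 3609 CPM. UT had no cell in it.

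Cluster 2 went against the macrophage label by both its leading genes and its macrophage list. This cluster (69 cells, 47 of BP replicate 1 and 16 of UT) was led by Npas3, Meis2 and Igfbp2, had the tumour list at 1134 CPM and the macrophage list at 571 CPM, and held 31 likely doublets. In 50 of its cells C1q was under 0.1% of UMIs, and its median depth was 28199 UMIs. Cluster 10 (24 cells, 7 of IgG replicate 1) was led by Ttr, Wfdc2, Gdf15 and mitotic genes such as Ube2c, Birc5 and Cenpf, and held 13 likely doublets. Its macrophage list was at 4965 CPM and Apoe at 7062 CPM, near the macrophage list of clusters 1 and 6 (5460 and 5637 CPM). Ttr had 540 UMIs in members of IgG replicate 2, 70 in CD40, 2 each in BP replicate 2 and BPI and none in IgG replicate 1, so that it came mostly from 1 library. Cluster 10 took 33.3% of the members of IgG replicate 1, and cluster 2 took 27.1% of UT.

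**Figure D1:**
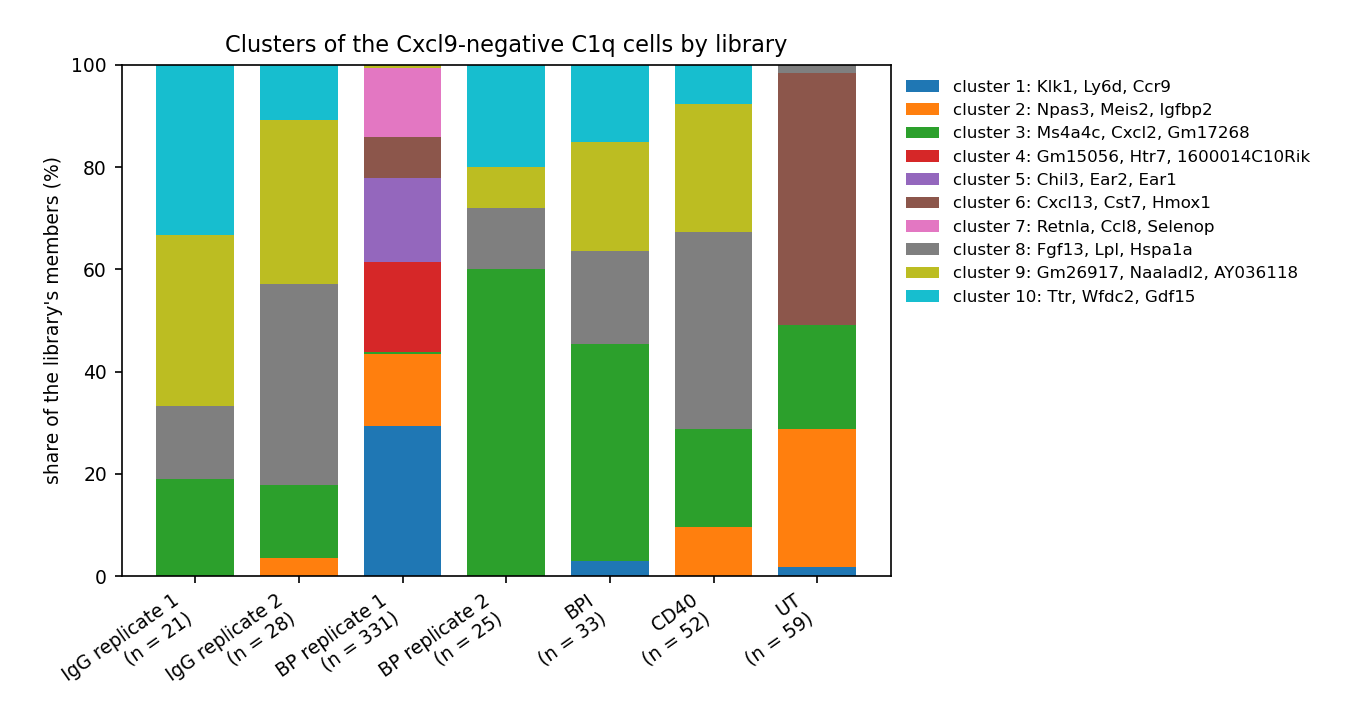
Stacked bars give, for each of the 7 libraries, the percentage of its Cxcl9-negative C1q cells in each of 10 clusters (y axis, percent of members). Cluster 3 fills 60% of BP replicate 2, cluster 8 takes 39.3% of IgG replicate 2 and 38.5% of CD40, and clusters 4, 5 and 7 appear in BP replicate 1 alone.

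States were described with 4 gene lists: tissue remodelling (27 genes), lipid handling (25), border macrophage (20) and cycling (25). Levels are summed member UMIs in CPM, from a 3′ tag kit that counts molecules, so that levels of different genes are comparable without a length term. Deep cells weigh more in these sums and in the gene tests between groups. Cluster 2, which went against the macrophage label, had a median of 28199 UMIs against 6218 over all members. It held 47 cells of BP replicate 1 and 16 of UT, and its part in the levels and contrasts was not tested on its own. A cell was counted in a state when it had at least 3 different genes of the list among 1000 UMIs. By that count 382 members (69.6%) were in the remodelling state, 480 (87.4%) in the lipid state, 88 (16%) in the border state and 90 (16.4%) in the cycling state. In the T cells described above the same counts gave 0.956% to 5.41%, 0% to 6.76%, 0% to 0.111% and 5.41% to 20.1%. T cells divide too, so that the last range is no background for cycling. Of the members in the 4 states, BP replicate 1 supplied 280, 307, 72 and 48 in this order, beside 331 of all 549 members. The pooled border share thus rests mostly on that library.

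States overlapped within cells. Of the 382 remodelling cells 368 (96.3%) were also in the lipid state, which is 76.7% of the lipid cells. Of the 88 border cells 86 were lipid cells, beside the 87.4% of all members in that state, and these were 17.9% of the lipid cells. Border cells were also remodelling cells in 75 of 88 cases (19.6% of the remodelling cells), but BP replicate 1 gave 67 of 72 and the other libraries 8 of 16. Cycling cells were in the lipid state in 58 of 90 cases (64.4%), in remodelling in 39 (43.3%) and in border in 3 (3.33%). For remodelling, BP replicate 1 gave 30 of 48 cycling cells and the other libraries 9 of 42. For lipid these counts were 35 of 48 and 23 of 42. Over all members 87.4% were in the lipid, 69.6% in the remodelling and 16% in the border state. In the pooled cells, remodelling cells thus lay above the lipid and border shares, and cycling cells below each share. Cells with exactly 2 and exactly 3 list genes, just outside and just inside the count, numbered 67 and 88 for remodelling, 34 and 49 for lipid, 106 and 47 for border and 67 and 41 for cycling.

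Remodelling genes were widespread, with BP replicate 1 the highest by cells. The share of members in that state was 38.1% (18.1 to 61.6) and 57.1% (37.2 to 75.5) in IgG, 84.6% (80.2 to 88.3) and 60% (38.7 to 78.9) in BP, 51.5% in BPI, 50% in CD40 and 33.9% (22.1 to 47.4) in UT. By summed level the order was another one: 4538 and 11221 CPM in IgG, 8685 and 6911 in BP, 6841 in BPI, 13180 in CD40 and 1945 in UT. Only the interval of BP replicate 1 lay clear of the other 6 by cells, whereas CD40 and IgG replicate 2 led by level. That level was mostly 1 gene: Spp1 made up 69.0% of the remodelling sum in CD40 and 60.8% in IgG replicate 2.

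Spp1 encodes osteopontin, a secreted matrix protein of repair and foam-like macrophages (chromosome 5, 104435118 to 104441050). It was at 1243 and 6827 CPM in IgG, 714 and 1717 in BP, 2122 in BPI, 9099 in CD40 and 98.8 in UT. CD40 and IgG replicate 2, both of set B, were the 2 high libraries and UT the low one. Lgals3, the galectin-3 gene, led the list in the other 5 libraries (19.7% to 35.5% of the sum) and was steadier, at 1408 and 778 CPM in IgG, 1713 and 2451 in BP, 2210 in BPI, 1107 in CD40 and 538 in UT. Ctsl, a lysosomal protease gene, was highest in IgG replicate 2 at 1730 CPM and lowest in UT at 133.

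Other remodelling genes had other orders. Arg1, which encodes arginase 1, was at 1391 CPM in BP replicate 1 and at 0 to 31.3 CPM in the other 6, so that it was a gene of that library. Mmp12, the macrophage elastase gene, was at 112 and 163 CPM in IgG, 351 and 5.32 in BP, 0 in BPI, 43.9 in CD40 and 0 in UT. Fn1, the fibronectin gene, ran from 15.0 CPM in UT to 489 in BP replicate 1. Vegfa, the target of B20, stayed low at 21.3 and 3.62 CPM in IgG, 61.4 and 10.6 in BP, 0 in BPI, 15.1 in CD40 and 15.0 in UT. One UMI is worth 5.33 and 3.62 CPM in IgG, 0.312 and 5.32 in BP, 5.16 in BPI, 1.37 in CD40 and 1.25 in UT, so low values in the small libraries rest on a few molecules.

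Lipid genes gave the highest levels of the 4 lists in every library. The list summed to 12469 and 49482 CPM in IgG, 18489 and 23938 in BP, 21991 in BPI, 32115 in CD40 and 4750 in UT, and 22 of its 25 genes had a UMI in every library. The share of cells in the state was 71.4% and 89.3% in IgG, 92.7% and 88% in BP, 72.7% in BPI, 90.4% in CD40 and 67.8% in UT. IgG replicate 2 was highest by level. UT was lowest by both measures, as it was for remodelling. In cells with C1q of at least 0.1% of UMIs, UT was at 12875 CPM, nearer to the 18342 CPM of IgG replicate 1.

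Apoe, the main lipid carrier of brain macrophages (chromosome 7, 19696109 to 19699188), supplied 24.5% of the lipid sum in UT and 51.6% to 76.5% elsewhere. It stood at 7349 and 37852 CPM in IgG, 9536 and 14380 in BP, 13662 in BPI, 21432 in CD40 and 1164 in UT. Trem2, a lipid-sensing receptor gene, was at 341 and 1321 CPM in IgG, 251 and 500 in BP, 589 in BPI, 883 in CD40 and 81.3 in UT, which is the same order at both ends as Apoe. Gpnmb, a gene of lysosome-rich foamy macrophages, was at 341 and 424 CPM in IgG, 168 and 330 in BP, 372 in BPI, 1086 in CD40 and 1.25 in UT. A single Gpnmb UMI was seen in UT.

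Within the lipid list, genes split by library. Lpl, the lipoprotein lipase gene, was at 58.7 and 434 CPM in IgG, 3.12 and 53.2 in BP, 20.7 in BPI, 289 in CD40 and 6.25 in UT, again highest in the 2 libraries of set B, as was Cd9 (1195 and 876 CPM against 191 to 351). Fabp5, a fatty acid binding protein gene, ran the other way, at 603 and 818 CPM in IgG, 2334 and 1978 in BP, 1384 in BPI, 799 in CD40 and 245 in UT. Both BP libraries lay above all others for Fabp5. Abca1, the cholesterol exporter gene, was at 649 CPM in BP replicate 1 and 37.5 to 217 in the others.

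Border genes were lower and rested on few libraries. The list summed to 1136 and 2128 CPM in IgG, 2178 and 1786 in BP, 1466 in BPI, 1065 in CD40 and 535 in UT, and 11 of 20 genes had a UMI in every library. The cell share was 14.3% and 17.9% in IgG, 21.8% (17.4 to 26.6) and 0% in BP, 3.03% in BPI, 9.62% in CD40 and 3.39% in UT. For BP replicate 2, where 0 of 25 cells qualified, the exact interval runs up to 13.7%. Its list sum was still 1786 CPM because Ms4a7, a gene of monocyte-derived and border macrophages alike, made up 69.9% of it.

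Mrc1, the mannose receptor gene CD206 (chromosome 2, 14229392 to 14332057), was at 16 and 282 CPM in IgG, 656 and 0 in BP, 5.16 in BPI, 117 in CD40 and 2.50 in UT. BP replicate 1, IgG replicate 2 and CD40 were the 3 high libraries. Lyve1, a hyaluronan receptor gene of perivascular macrophages, had UMIs in IgG replicate 2 (76.0 CPM) and CD40 (30.2 CPM) and none in the other 5. The Mrc1 level of BP replicate 1 thus came without a Lyve1 UMI. Pf4, a chemokine gene of border macrophages, was at 26.7 and 199 CPM in IgG, 178 and 15.9 in BP, 51.6 in BPI, 64.4 in CD40 and 18.8 in UT. Ms4a7 had another order, lowest in the set B libraries, with 560 and 275 CPM in IgG, 840 and 1249 in BP, 971 in BPI, 280 in CD40 and 329 in UT.

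Monocyte genes differed between libraries. Ly6c2 was at 379 and 0 CPM in IgG, 315 and 696 in BP, 589 in BPI, 4.11 in CD40 and 768 in UT, so that both libraries of set B, where Lyve1 was seen, had almost none. Ccr2, the monocyte chemokine receptor gene, was at 0 in IgG replicate 2 but highest of all in CD40 (49.4 CPM, against 21.3 to 42.5 in the other 5), so that the 2 set B libraries did not go together for it. A list of 13 microglia genes outside the rule, such as Cx3cr1, summed to 3203 CPM in IgG replicate 2 and 2541 in CD40, against 529 to 1627 in the others. Those 2 libraries were therefore high for Spp1, Apoe, Lpl, Lyve1 and microglia-list genes together, and the part of the microglia-list genes in the state levels was not tested.

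Cycling genes were highest in UT and IgG replicate 1. The list summed to 3093 and 1162 CPM in IgG, 1464 and 1398 in BP, 1699 in BPI, 2574 in CD40 and 3255 in UT, and all 25 genes had a UMI in every library. The cell share was 33.3% and 10.7% in IgG, 14.5% and 12% in BP, 9.09% in BPI, 15.4% in CD40 and 30.5% in UT. Tumour genes were in 33.3% of members in IgG replicate 1 and 42.4% in UT, but also in 33.8% in BP replicate 1 and 34.6% in CD40. Without the cells that had a tumour gene, the list stood at 1033 and 313 CPM in IgG, 486 and 447 in BP, 1378 in BPI, 1217 in CD40 and 1053 in UT. Every library was lower than with all its members, and BPI became the highest. By cluster, the cycling list was at 3762 CPM in cluster 2 and 3847 in cluster 10, and at 318 to 1425 in the others. Cluster 2 took 27.1% of UT and held 31 likely doublets. Cluster 10 took 33.3% of IgG replicate 1 and held 13. The part of tumour RNA and of these clusters in the cycling level was not tested further.

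Top2a, a topoisomerase gene of S and G2 phase, was at 469 and 123 CPM in IgG, 261 and 223 in BP, 212 in BPI, 584 in CD40 and 359 in UT. Mki67, the Ki-67 gene, was at 240 and 47.1 CPM in IgG, 64.2 and 63.8 in BP, 41.3 in BPI, 171 in CD40 and 60 in UT. IgG replicate 1 and CD40 were high for both. Pcna, the replication clamp gene, led in UT (401 CPM) and ran from 112 to 232 CPM elsewhere.

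**Figure D2:**
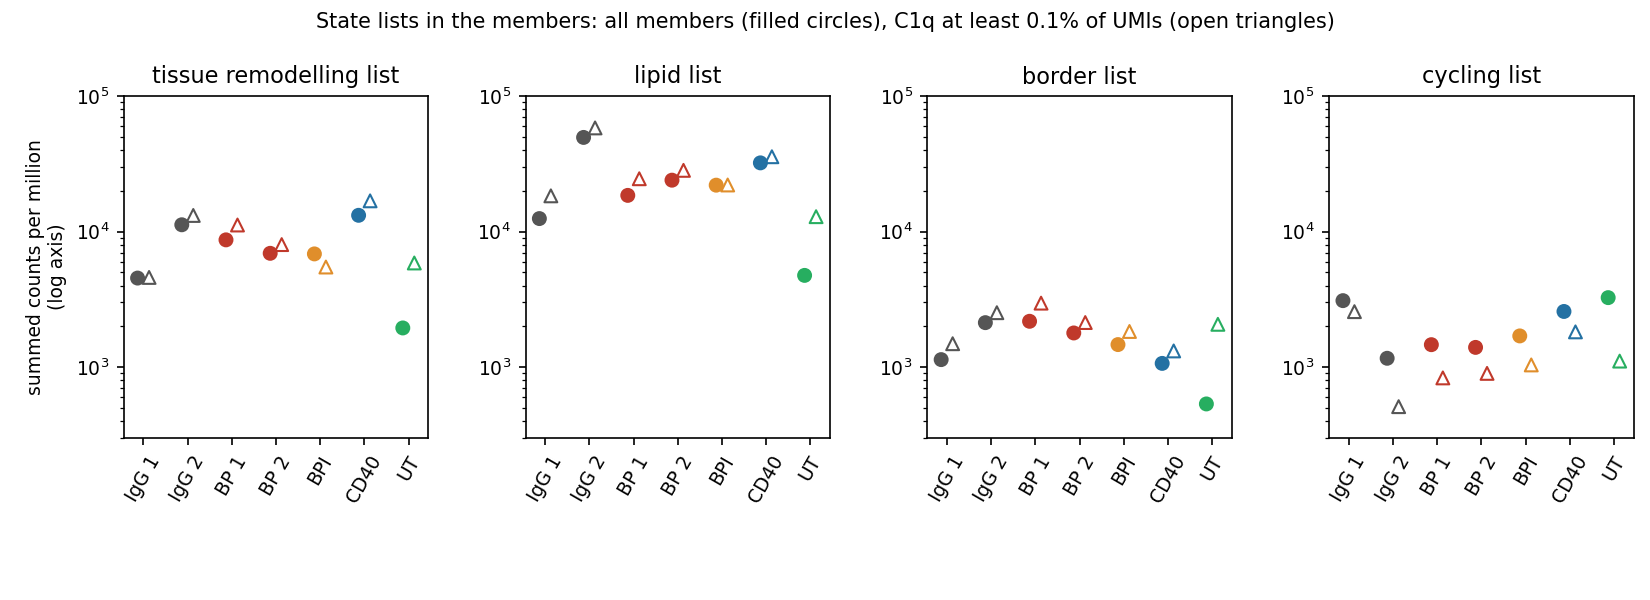
Each panel plots 1 state list, with the 7 libraries on the x axis and the summed CPM of the list in members on a log y axis. Filled points are all members and open triangles are cells with C1q of at least 0.1% of UMIs; lipid sums run from 4750 CPM in UT to 49482 in IgG replicate 2, and the open triangle of UT stands above its filled point for remodelling, lipid and border.

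**Figure D3:**
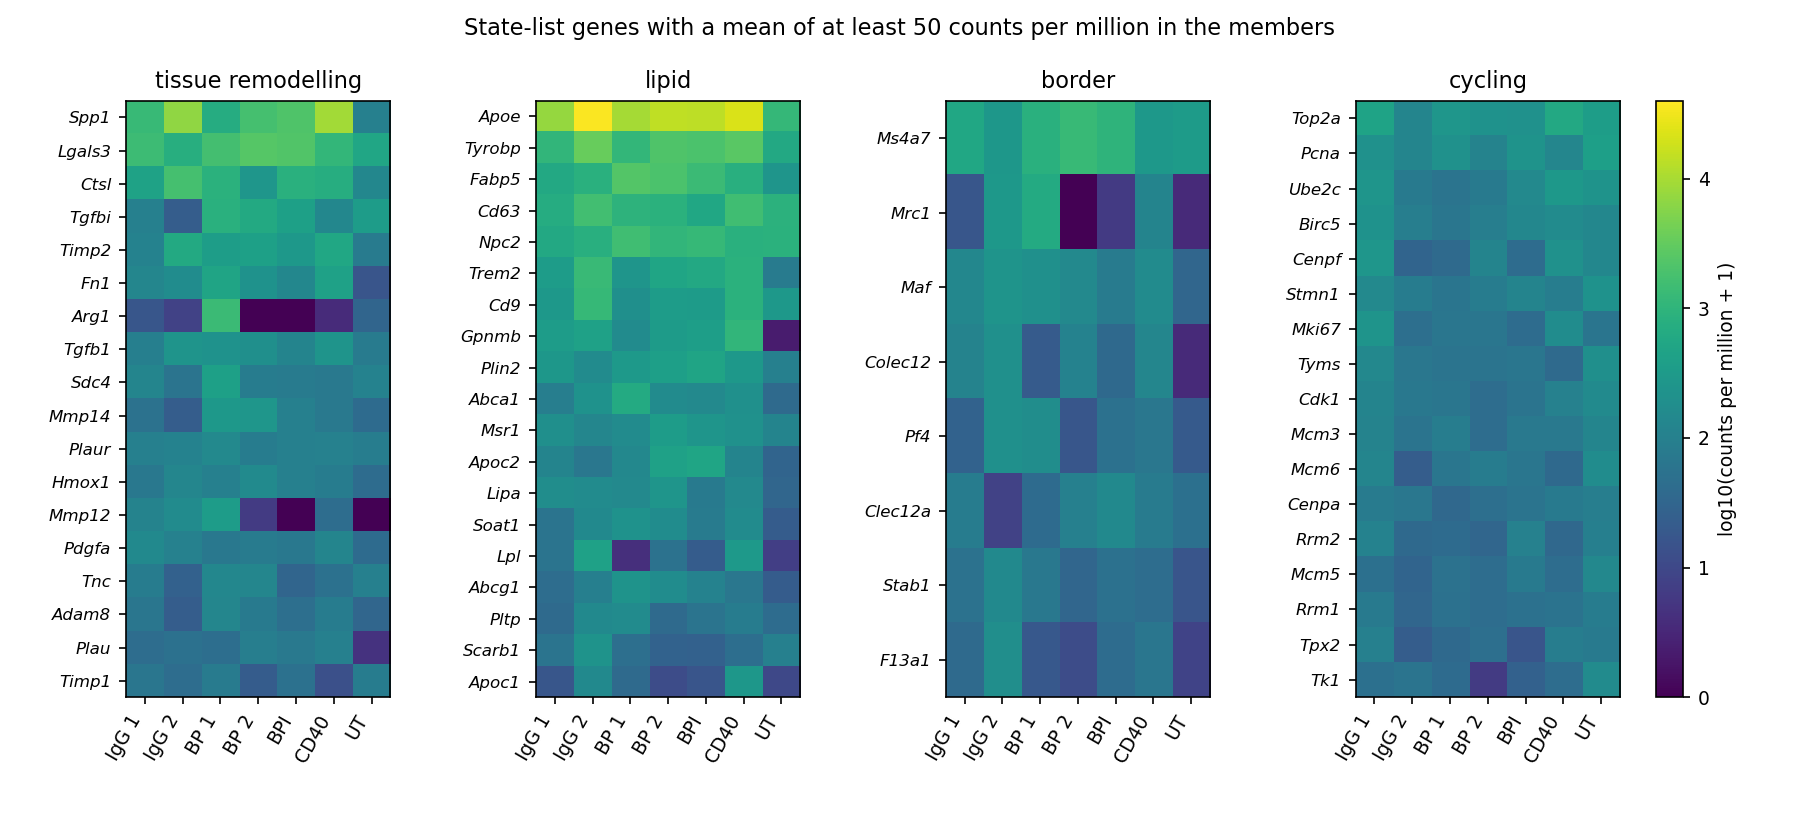
Heat maps give log10(CPM + 1) in members for the genes of each list that average at least 50 CPM over the 7 libraries (18 remodelling, 19 lipid, 8 border and 17 cycling genes), with libraries in columns. Arg1 is high in BP replicate 1 alone, Apoe leads the lipid list in each library, and Mrc1 is high in BP replicate 1, IgG replicate 2 and CD40.

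In BP, members had higher MHC class II and interferon-response genes than in IgG, while 3 genes of the 4 state lists passed the test. In the same contrast 10 of 10 monocyte-derived genes lay on the higher side (median log2 difference 1.44) and 1 of 9 microglia-list genes did (median -1.16), with none past the threshold, and their part in the result was not tested. Summed counts per library were compared with edgeR's quasi-likelihood test and Benjamini-Hochberg adjustment over all genes tested (called edgeR adjusted p from here on), at a threshold of 0.05. For BP against IgG 68 of 6028 genes passed, 1.13%, with 50 higher and 18 lower in BP. Without cells that had a tumour gene 21 passed, and without BP replicate 1 34. IgG replicate 1 and BP replicate 2 share set A, and with these 2 as one block and the other 2 libraries as another 0 passed, against 65 with the same-numbered libraries as blocks. Since the counts are sums over cells, a change in the mix of states and a change within cells cannot be told apart.

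Of 24 remodelling genes tested, 2 rose in BP and none fell, a larger share than the 1.13% of all genes but only a pair of genes, and 18 lay on the higher side. The median log2 difference of the list was 0.76 against -0.02 for all genes. Tgfbi, a matrix protein gene induced by TGF-beta, was at 101 and 21.7 CPM in IgG and 832 and 617 in BP, with 413 in BPI, 134 in CD40 and 346 in UT. Every BP library lay above every IgG library, and Tgfbi rose by 3.54 ± 0.69 (log2, SE, edgeR adjusted p = 0.0139). Mmp14, a membrane-bound matrix metalloproteinase gene, was at 53.3 and 21.7 CPM in IgG and 279 and 260 in BP, and rose by 2.81 ± 0.58 (edgeR adjusted p = 0.0206). Both also passed without BP replicate 1, with log2 differences of 3.43 and 2.87 (edgeR adjusted p = 0.0078 and 0.0427). For Arg1 the fit gave 5.77 ± 1.42 (edgeR adjusted p = 0.0548), a value that rests on BP replicate 1.

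None of 22 lipid genes and none of 23 cycling genes passed for BP, and their medians were 0.35 and -0.77. Apoe differed by -1.05 ± 0.70 (edgeR adjusted p = 0.846), Spp1 by -1.85 ± 0.75 (0.428) and Gpnmb by -0.72 ± 0.59 (0.906). Lpl came nearest with -4.09 ± 1.13 (edgeR adjusted p = 0.0976), while Fabp5 had 1.48 ± 0.56 (0.362). The 2 IgG libraries lay farther apart than the groups did for Apoe and Spp1. Both passed without BP replicate 2 (Spp1 -2.80, Apoe -1.55, edgeR adjusted p = 0.00159 and 0.0396) and were on the higher side without IgG replicate 2 (0.018 and 0.74), so that single libraries decided them. Mki67 and Top2a differed by -1.20 ± 0.61 and -0.33 ± 0.61 (edgeR adjusted p = 0.661 and 0.95).

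Of 14 border genes 1 fell, with a list median of -0.74. F13a1, a coagulation factor gene of border macrophages and monocytes, was at 37.3 and 188 CPM in IgG and 17.5 and 10.6 in BP, and fell by 3.09 ± 0.71 on the log2 scale (edgeR adjusted p = 0.0370). Without BP replicate 1 it missed the threshold (-3.44, edgeR adjusted p = 0.205). Mrc1 had 0.87 ± 1.08 (edgeR adjusted p = 0.924) and turned to -8.69 (0.0427) without BP replicate 1 and to 4.34 (0.00108) without IgG replicate 2, so that its direction and call depended on single libraries. Gas6, a ligand gene for the Mertk receptor family, differed by -2.56 ± 0.65 (edgeR adjusted p = 0.0672).

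As sums per list the BP minus IgG difference of mean log2 CPM was 0.12 for remodelling, -0.24 for lipid, 0.34 for border and -0.41 for cycling, each smaller than the pooled SD of the libraries (0.67, 1.01, 0.48 and 0.71, n = 2 each). Leaving out 1 library at a time moved these to -0.53 to 0.77, -1.23 to 0.75, -0.11 to 0.80 and -1.11 to 0.30, so that each changed sign. Within set A, where BP replicate 2 met IgG replicate 1 with no replicate on either side, the log2 differences were 0.61, 0.94, 0.65 and -1.15. The direction for lipid was thus opposite within the set.

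The other lists moved more. Of 7 MHC class II genes 5 rose (list median 4.31) and of 26 interferon-response genes 11 rose (median 2.79). H2-Aa, which encodes an MHC class II chain, was at 80.0 and 148 CPM in IgG, 3849 and 2185 in BP, 1384 in BPI, 932 in CD40 and 841 in UT. Both IgG libraries lay under the other 5, and H2-Aa rose by 4.55 ± 0.67 in BP (edgeR adjusted p = 0.00342), and by 4.22 (7.13e-06) without BP replicate 1. Within set A the class II list was at 10531 CPM in BP replicate 2 and 491 in IgG replicate 1, a log2 difference of 4.42, and the interferon list differed by 1.40. Ciita, the class II master regulator gene, was at 0 and 3.62 CPM in IgG and 135.9 and 15.9 in BP (edgeR adjusted p = 0.0373). Members, which had no Cxcl9 UMI by choice and in BP were shallower than the Cxcl9-bearing cells, carried these genes.

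Acod1 and Cd274, whose products restrain immune responses, rose in both BP libraries. Gm15056, a predicted gene, had no UMI in IgG, 1015 and 127.6 CPM in BP, 506 in BPI, 0 in CD40 and 843 in UT, at least 149-fold higher in BP than a floor of 3 UMIs over the IgG group (edgeR adjusted p = 0.00342). For BP replicate 2 alone the bound was 19.7-fold. Acod1, which encodes the enzyme that makes itaconate, was at 5.33 and 0 CPM in IgG, 101 and 276 in BP, 227 in BPI, 42.5 in CD40 and 37.5 in UT (edgeR adjusted p = 0.00472). Its 1 IgG UMI gives a ratio of 51.5 with a 95% counting interval of 9.18 to 2038, and 128.2 for BP replicate 2 alone. Both genes also passed without BP replicate 1, so that they were rises of both BP libraries. Cd274, the PD-L1 gene and the target of the treatment, was at 5.33 and 21.7 CPM in IgG, 235 and 154 in BP, 87.8 in BPI, 31.5 in CD40 and 80.0 in UT, and rose by 3.59 ± 0.66 (edgeR adjusted p = 0.00869).

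Several rises were much larger in BP replicate 1. Ccl8, a monocyte chemokine gene (chromosome 11, 82115185 to 82116799), was at 10.7 and 3.62 CPM in IgG, 8228 and 37.2 in BP, 20.7 in BPI, 0 in CD40 and 146 in UT (edgeR adjusted p = 0.00869). With 3 IgG UMIs the ratio of the summed counts is 1202 (411 to 5829), and 5.75 for BP replicate 2 alone. C3, the complement component gene, was at 1070 and 74.4 CPM in BP, and Pdcd1lg2, the PD-L2 gene, at 316 and 10.6 (edgeR adjusted p = 0.00609 and 0.0236). The arginine transporter gene Slc7a2 had 609 and 26.6 CPM in BP, the coagulation gene F10 192 and 26.6, and Ly6i, a Ly6 family surface protein gene, 229 and 79.7 (edgeR adjusted p = 0.0327, 0.0294 and 0.0139). Genes were named only where the groups had no overlap, so that BP replicate 2 lay above both IgG libraries by that choice. It was under BP replicate 1 for each of these genes. For Pdcd1lg2 it had 2 UMIs, against 0 and 1 in IgG. Without BP replicate 1, C3, Slc7a2 and Ly6i missed the threshold, while Ccl8, Pdcd1lg2, Ciita and F10 had too few counts to be tested. The log2 differences there were 3.44 for C3, 1.06 for Slc7a2 and 3.52 for Ly6i, against 6.23, 4.48 and 4.41 with all libraries.

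Genes that fell in BP included growth factor and signalling genes. Csf1, the macrophage growth factor gene, was at 235 and 148 CPM in IgG, 42.7 and 31.9 in BP, 36.1 in BPI, 147 in CD40 and 16.3 in UT, and fell by 2.41 ± 0.53 on the log2 scale (edgeR adjusted p = 0.0279). Adamts1, a matrix protease gene, was at 74.7 and 192 CPM in IgG and 9.35 and 0 in BP, a fall of 4.33 ± 0.71 (edgeR adjusted p = 0.00472) that also passed without BP replicate 1. Rasgrp3, which encodes a Ras activator, was at 21.3 and 138 CPM in IgG and had no UMI in BP, at least 103-fold higher in IgG than a floor of 3 UMIs over the BP group (edgeR adjusted p = 0.00358), a bound that was 5.68-fold for BP replicate 2 alone. Bhlhe41, Cacna1a and Gpr183, a transcription factor, a calcium channel and an oxysterol receptor gene, fell with log2 differences of -3.71 ± 0.88, -3.63 ± 0.83 and -2.94 ± 0.69 (edgeR adjusted p = 0.0451, 0.0370 and 0.0417). Without BP replicate 1, the calls for Rasgrp3, Bhlhe41, Cacna1a, Gpr183 and Csf1 were lost, at edgeR adjusted p of 0.114, 0.998, 0.429, 0.680 and 0.249. The difference of Csf1 kept its size there (-2.53), while Bhlhe41, Cacna1a and Gpr183 had -2.06, -2.18 and -2.19. Rasgrp3 had -7.78 there, against -9.26 with all libraries. In that fit 34 genes passed, and 23 of the 68 were among them.

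**Figure D4:**
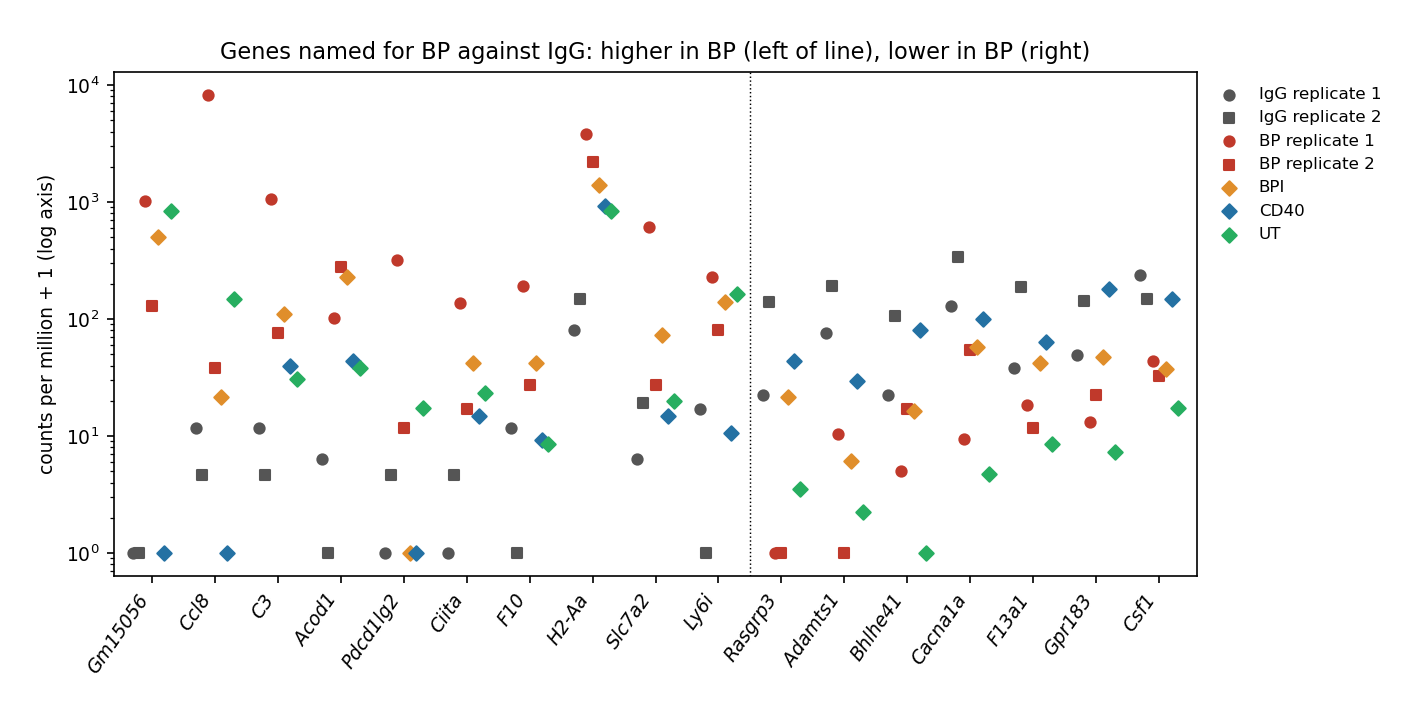
Points give the CPM + 1 of 17 genes that passed for BP against IgG in members (log axis), 1 point for each of the 7 libraries, coloured by group. Both IgG points of H2-Aa, at 80.0 and 148 CPM, lie under all others, and Ccl8 reaches 8228 CPM in BP replicate 1 while BP replicate 2 is at 37.2.

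Adding the PI3K inhibitor was measured in 1 library. For BPI against IgG 6 of 6028 genes passed (0.0995%), and none of the genes of the 4 state lists did. Cxcl10, a chemokine gene of the interferon response, was at 26.7 and 0 CPM in IgG, 190 and 532 in BP, 811 in BPI, 13.7 in CD40 and 539 in UT. It rose in BPI by 6.25 ± 1.03 on the log2 scale (edgeR adjusted p = 0.00887), as did Acod1 (ratio 105, 17.9 to 4255, edgeR adjusted p = 0.00887) and Gm15056 (at least 78.2-fold, 0.00626). In each BP library, too, these 3 lay above both IgG libraries. Without cells that had a tumour gene none of the 6 calls was kept, though the differences stayed near their size (Cxcl10 5.41 and Acod1 5.70, edgeR adjusted p = 0.313 and 0.236, and 0.0747 for Gm15056). With DESeq2 Cxcl10 had 6.21 and did not pass (adjusted p = 0.479), and neither did Gm15056 (0.9995). H2-Aa and H2-Ab1 had 3.67 ± 0.71 and 3.55 ± 0.70 and just missed the threshold (edgeR adjusted p = 0.0509 and 0.0534). On the lower side Adamts1, Ints6, Mmp12 and Gys1 did not pass (edgeR adjusted p from 0.275 to 0.540). The medians of the lists were -0.19 for remodelling, -0.19 for lipid, -1.72 for border and -0.23 for cycling, against -0.06 for all genes. Within set A the sums of these lists differed by 0.59, 0.82, 0.37 and -0.86 (log2, BPI minus IgG replicate 1, no replicate). By sums within the set, remodelling, lipid and border were thus on the other side from these medians.

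For BPI against BP, which addresses what the inhibitor added, 0 of 6028 genes passed with edgeR (0%), 193 had an unadjusted p under 0.05, and DESeq2 called 2. The lowest p belonged to Atp6v0d2, a lysosomal proton pump gene, at 252 and 213 CPM in BP and 10.3 in BPI (2 UMIs, ratio 24.2, 6.68 to 200, edgeR adjusted p = 0.259). Its BPI level lay under both BP and both IgG libraries (74.7 and 76.0 CPM). Tnf, the tumour necrosis factor gene, was at 15.9 and 95.7 CPM in BP and 253 in BPI, a difference of 2.63 ± 0.93 (edgeR adjusted p = 0.996). Mmp12 and Pdcd1lg2 were at 0 in BPI, at least 21.4-fold and 19.3-fold lower than in BP against a floor of 3 UMIs, with almost all BP counts from replicate 1. Cd84, Cklf, Gk, Idh3a, Ccl8 and Rasgrp3 also did not pass (edgeR adjusted p = 0.996 each). Pik3cg and Pik3cd, the genes of the inhibited subunits, were at 10.3 and 25.8 CPM in BPI, against 16.5 and 21.3 CPM (Pik3cg) and 97.9 and 15.9 CPM (Pik3cd) in BP. The list medians were -0.75 for remodelling, -0.14 for lipid, -0.18 for border and 0.29 for cycling, against -0.08 for all genes. Within set A the list sums differed by -0.015, -0.12, -0.28 and 0.28 (log2, BPI minus BP replicate 2, no replicate).

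In CD40 against IgG 1 of 6028 genes passed (0.0166%). That gene was Ccl5, a T cell and monocyte chemokine gene, with no UMI in IgG, 580 and 415 CPM in BP, 227 in BPI, 130 in CD40 and 581 in UT. It was at least 20.1-fold higher in CD40 than a floor of 3 UMIs over the IgG group (edgeR adjusted p = 0.0380), and its call was lost without tumour-gene cells and without likely doublets. Class II genes were on the higher side without passing: H2-Aa had 2.91 ± 0.70 (edgeR adjusted p = 0.967), and Cd74, the class II chaperone gene, was at 251 and 467 CPM in IgG and 2231 in CD40. S100a4 was at 112 and 7.24 CPM in IgG and 385 in CD40, whereas Ccl12 was at 539 and 250 in IgG and 48.0 in CD40. Arhgap15, Adamts1, Cdk6, Hspa1a and Ifitm10 did not pass either (edgeR adjusted p = 1). No gene of the 4 state lists passed, with medians of -0.06, 0.21, -0.80 and 0.08. Within set B the sums of the remodelling, lipid, border and cycling lists differed by 0.23, -0.62, -0.998 and 1.15 (log2, CD40 minus IgG replicate 2, no replicate). Cd40 itself had no UMI in CD40 members, against 5.33 and 7.24 CPM in IgG (1 and 2 UMIs), 47.4 and 37.2 in BP, 41.3 in BPI and 43.8 in UT. It did not pass. Against a floor of 3 UMIs in CD40, IgG was at least 1.57-fold higher, so that these counts are too few to show a loss.

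UT against IgG sets untreated mice beside mice given the isotype control, but UT is alone in set D, so that group and set cannot be told apart. Here 36 of 7150 genes passed (0.503%), 24 higher and 12 lower in UT. Interferon-response genes supplied 7 of the rises (of 26 tested, median 3.49): Cxcl10, Gbp2, Gbp3, Ifi47, Igtp, Iigp1 and Irgm1. No rise that passed in UT met all conditions for a named gene, which include a limit on free RNA (given with the processing below). The upper bound on free RNA in UT was 77.1% of member UMIs, and the part of free RNA in these rises was not tested. Gpnmb fell, with 1 UMI in UT against 64 and 117 in IgG, an IgG to UT ratio of 312 (55.3 to 12399, edgeR adjusted p = 0.0109). Gas6 fell, with an IgG to UT ratio of 69.0 (11.7 to 2793, edgeR adjusted p = 0.0252). Of 22 lipid genes 2 lay on the higher side (median -2.02), and of 15 border genes 2 did (median -3.01). Spp1 and Apoe had -5.60 ± 1.27 and -4.52 ± 1.14 and did not pass (edgeR adjusted p = 0.0668 and 0.0912). The macrophage list was also low in UT, as given above, and its part in the lipid values was not tested; with C1q of at least 0.1% of UMIs Gpnmb had -5.71 (0.00849) and Gas6 no longer passed (0.0632).

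Further falls in UT were Adamts1, Atp6v0d2 and Smad7, with IgG to UT ratios of 116 (20.05 to 4632), 60.4 (10.1 to 2452) and 21.3 (6.74 to 108) and edgeR adjusted p of 0.0203, 0.0127 and 0.0331. Csf1 fell by 3.69 ± 0.72 (edgeR adjusted p = 0.0380), and Plxdc2, a plexin-domain receptor gene at 101 and 199 CPM in IgG and 5.00 in UT, fell by 5.09 ± 1.01 (0.0387). Csf1 and Adamts1 passed for BP as well, in a comparison that shares both IgG libraries with this one. With C1q of at least 0.1% of UMIs, Atp6v0d2 and Plxdc2 no longer passed (-3.20 and -3.12, edgeR adjusted p = 0.301 and 0.0804). Xist, at least 110-fold lower, is a mark of the library (edgeR adjusted p = 0.0127). On the higher side Cdh4, Slamf7, Hal and C5ar1, which the rule for names drew in, did not pass (edgeR adjusted p from 0.0912 to 0.972). Leaving out BP replicate 1 or BP replicate 2 left 1 gene past the threshold for UT, and leaving out the tumour-gene cells left 8. Without BP replicate 1 the differences hardly moved (Gpnmb -8.10, Adamts1 -6.63 and Csf1 -3.68, edgeR adjusted p = 0.169, 0.293 and 0.293).

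Against the C1q cells that carried P2ry12, Tmem119 or Sall1 UMIs (3331 cells: 162 and 819 in IgG, 646 and 198 in BP, 229 in BPI, 1042 in CD40 and 235 in UT), the members were higher for border and some remodelling and lipid genes. The rule itself set these populations apart, so that genes that go with the microglia genes had to differ and the values are a description. All cells were thinned to 1000 UMIs and summed per library, with the library as a block. Of 5390 genes 693 passed (12.9%), 107 higher and 586 lower in members. Of 12 border genes 8 were among the higher ones (median log2 difference 1.69, against -0.16 for all genes), of 21 lipid genes 7 higher and 1 lower (0.38), of 20 remodelling genes 4 higher and 1 lower (0.44), and of 17 cycling genes none (0.40).

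Lgals3 was higher by 1.89 ± 0.24 on the log2 scale (means of 1394 against 475 CPM) and Plin2, a lipid droplet coat gene, by 1.38 ± 0.28 (310 against 95.6), each in 7 of 7 libraries. S100a6 and S100a4, calcium-binding protein genes of recruited myeloid cells, were higher by 1.89 ± 0.30 and 1.80 ± 0.37, also in 7 of 7. Spp1 was higher in 7 of 7 libraries too (1.03 ± 0.22), and Apoe in 6 (0.77 ± 0.20, 15785 against 7307 CPM). Gpnmb was higher by 2.48 ± 0.35 and Fabp5 by 1.77 ± 0.24, in 6 of 7 libraries each. Trem2 went the other way, at -1.01 ± 0.22 (657 against 1099 CPM) and higher in members in 1 of 7. The lipid genes were thus not all on 1 side of the microglia-gene cells.

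Mrc1 and Lyve1 differed by 2.46 ± 0.40 and 4.33 ± 1.14 but were higher in only 3 and 2 of 7 libraries. Ms4a7 was higher in 6 of 7 (1.76 ± 0.25) and Pf4 in 7 of 7 (1.67 ± 0.42). Of the genes lower in members, Csmd3 (-5.34 ± 0.35, 51.4 against 1641 CPM) and P3h2 (-7.50 ± 0.99) were lower in 7 of 7 libraries, and so were the microglia genes Slc2a5 and Crybb1. Pik3cg, the PI3K gamma gene, was lower by -1.85 ± 0.47. Top2a and Arg1 had 0.10 ± 0.30 and -0.04 ± 0.43.

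By cells, at 1000 UMIs each, the remodelling state was in 17.9% and 28.4% of microglia-gene cells in IgG, 63.3% and 18.7% in BP, 16.2% in BPI, 33.1% in CD40 and 40.9% in UT. The members were above them in 6 of the 7 libraries, UT being the exception. Border state shares were 3.09% and 1.95% in IgG, 15.2% and 1.52% in BP, 1.75% in BPI, 1.82% in CD40 and 4.68% in UT. Members were above in 5 libraries, and below in BP replicate 2 and UT. BP replicate 1 had the highest remodelling and border shares in both populations. The microglia-gene cells were not alike across libraries. At least 3 microglia-list genes were in 26.5% of them in BP replicate 1 and 31.5% in UT, against 79.6% to 88.3% elsewhere. Their median depth there was 14837 and 13704 UMIs, against 6275 and 5823 in members. The part of this in the shares and gene differences was not tested. Lipid state shares were 70.4% and 81.7% in IgG, 91.95% and 71.2% in BP, 71.2% in BPI, 80.7% in CD40 and 91.5% in UT, so that IgG replicate 1, BP replicate 1 and BPI lay within 2 points of their members and UT members were far under. Cycling state shares were 19.1% and 11.8% in IgG, 12.4% and 10.1% in BP, 6.55% in BPI, 9.69% in CD40 and 17.9% in UT, under the members in 6 of 7. The tumour list was higher in members in all 7 libraries (30.3 to 399 CPM, against 17.5 to 221), and its part was not tested.

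**Figure D5:**
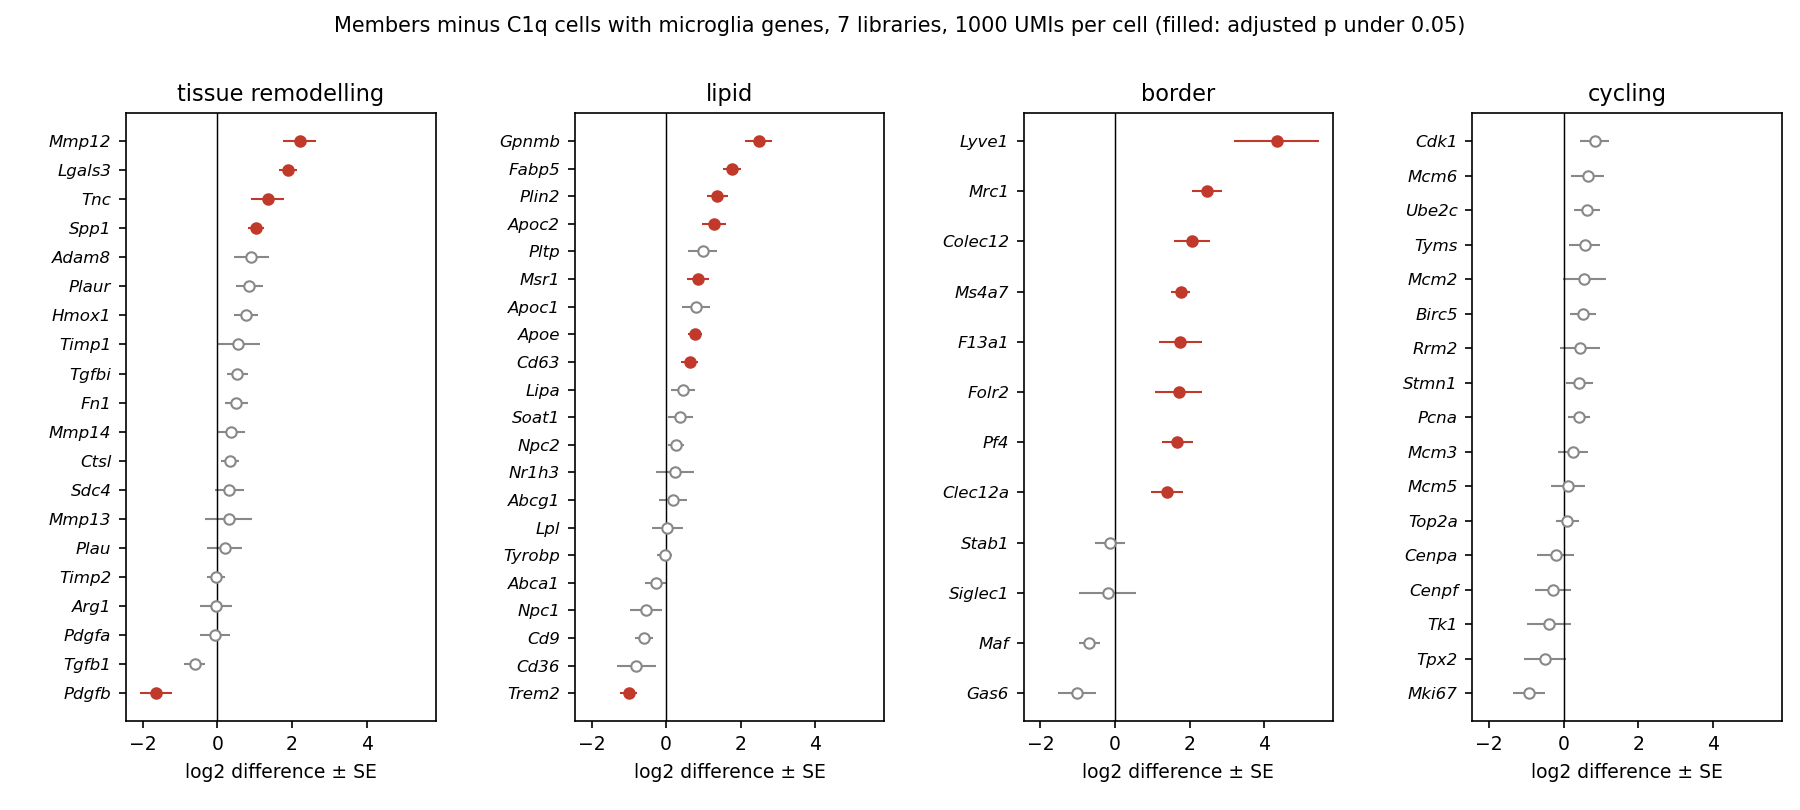
Each panel gives, for the genes of 1 state list, the log2 difference (x axis, members minus C1q cells with microglia genes) with its SE, filled where the edgeR adjusted p was under 0.05. Border genes lie mostly to the right (8 of 12 filled, Lyve1 at 4.33 ± 1.14), the lipid panel has Gpnmb at 2.48 ± 0.35 and Trem2 on the other side at -1.01 ± 0.22, and no cycling gene is filled.

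Against the 523 cells that met the other conditions and had Cxcl9 UMIs, a comparison the rule also set, 3 libraries had enough cells (BP replicate 1, BPI and UT). The split used all UMIs of each cell, and members were shallower in each of these libraries, as given above. The part of depth in the differences was not tested. Of 1991 genes 1 passed (0.0502%), and none of the 15 remodelling, 16 lipid, 5 border and 4 cycling genes. The gene was Nfib, a glial transcription factor gene and among the leading genes of cluster 2, at 169 CPM in members against 44.9 (1.90 ± 0.42, higher in 2 of 3 libraries). H2-Ab1 was lower in members in 3 of 3 libraries (-1.05 ± 0.27), and Tgfbi and Spp1 had -0.92 ± 0.26 and 0.95 ± 0.33. Without BP replicate 1 these 3 had -1.60, -1.46 and 2.00 and were among 51 genes that passed. In the Cxcl9-bearing cells of BP replicate 1, BPI and UT the remodelling state was in 90.3%, 51.5% and 48.7%, the lipid state in 95.03%, 84.8% and 88.7%, the border state in 19.3%, 12.1% and 2.61% and the cycling state in 8.29%, 0% and 13.04%. Cycling shares were higher in members in all 3 libraries and lipid shares lower in all 3. Border shares were higher in members in BP replicate 1 and UT, and remodelling shares lower in those 2. Members of BP replicate 1 and UT also had the tumour list higher, at 399 against 293 CPM and 339 against 200 CPM (30.3 against 60.6 in BPI), and 47 and 16 of them were in cluster 2, where the cycling list was at 3762 CPM and the lipid list at 3520. The part of these cells in the shares was not tested.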

How the data were processed

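The deposited values are raw UMI counts per gene and barcode, per the file headers made with Cell Ranger 4, while the submitters' processing notes name Cell Ranger 7.0.1; the build is mm10 (GRCm38). The kit is given as V2 3′ chemistry, though UT draws on another barcode list. From these counts members were chosen and summed per library, and compared with edgeR 4.0.16 (R 4.3.3, TMM, filterByExpr, quasi-likelihood test, Benjamini-Hochberg adjustment) in 1 fit of 6 libraries, with UT in a fit of 7. Lone libraries were assumed to vary like the replicated groups. The members, lists and tests were chosen with earlier results of these data known. Scripts were tested on simulated data. A library needed 20 members. Gene positions are from GENCODE. Likely doublets (by Scrublet in scanpy 1.11.5, the top-scoring 0.8% for every 1000 cells of a library) were kept in the main values and removed in an alternative. Clusters used 2000 variable genes, 20 components, 15 neighbours and Leiden resolution 1 (igraph 0.11.9).

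Named genes were those of the state lists at 50 CPM or more, 19 genes set whatever their values, and up to 10 rises and 10 falls per contrast that passed at 0.05, averaged 5 or more in log2 CPM, had no overlap between groups, and had less than 20% of their level open to free RNA in the higher group, filled up to 5 by lowest p. A gene's free RNA share was bounded with the tumour list in droplets of 10 to 100 UMIs. That bound was 23.4% of member UMIs in BPI to 100% in IgG replicate 1. Intervals are exact at 95% and, like the floor of 3 counts, cover counting error only.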

Additional observations from a re-analysis of the deposited data

How the results depend on the processing

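Under the alternatives, counts of genes past the edgeR threshold moved more than directions did. BP against IgG (68 genes) gave 224 with no filter on low counts, 24 on its 4 libraries only, 50 with DESeq2, 71 with DESeq2's size factors in edgeR, 168 with at least 10 C1q UMIs, 21 without cells with tumour genes, 47 without doublets and 169 with C1q of at least 0.1% of UMIs. Leaving out 1 library gave 34 (without BP replicate 1) to 177 (without BP replicate 2), with 176 without IgG replicate 1. BPI against IgG (6) gave 17 with DESeq2, 60 unfiltered, 43 with 10 C1q UMIs, 0 without tumour-gene cells, 44 by C1q share, and 9 to 93 with a library left out. CD40 against IgG (1) gave 2, 28, 6, 0 and 10 in the same order, 0 without doublets, and 8 to 24 with a library left out. BPI against BP (0) gave 2, 15, 4, 1 and 7, and 0 to 24. UT against IgG (36) gave 98, 288, 211, 8 and 200, and 1 to 423. The settings by C1q share, and the 10-cell minimum used for 10 C1q UMIs, tumour-gene cells and doublets, were chosen after seeing the data, since IgG replicate 1 fell under 20 cells. Gene fits without cells carrying further microglia genes were not run (7 and 5 IgG cells).

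The replicate numbers give no shared source, and same-numbered libraries deviated apart (correlation -0.133 over 4281 genes). With the replicate block 65 genes passed for BP against IgG, 45 of them among the 68, and with the crossed pairing, which puts the 2 libraries of set A together and was added after seeing the data, 0.

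Against microglia-gene cells (693) all UMIs gave 1392 and doublet removal 403. Against Cxcl9-bearing cells (1) all UMIs gave 384, no filter 10, DESeq2 0, no doublets 0 and leaving out BP replicate 1 51. The median share in the remodelling state, 51.5%, became 67.3% at 2 distinct genes and 81.0% at 2000 UMIs; border 9.62% became 23.8% and 20.8%, and cycling 14.5% became 27.3% and 28.9%. As a mean of log2(CPM + 1) the border difference was -0.81, and without cells carrying microglia-list genes the cycling difference was 0.60.

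Of the gene values under alternatives, 1034 kept direction and side of the threshold, 113 newly passed, 160 lost their call and 24 reversed. For BP against IgG, values that reversed with 1 library left out ranged as follows: Mrc1 -8.69 (without BP replicate 1) to 4.34, with -0.03 without IgG replicate 1; Pik3cd -1.28 to 1.57 and Mmp12 -4.61 to 1.09, both lowest without BP replicate 1; Mki67 -1.92 to 0.21 and Top2a -0.95 to 0.77, both positive without IgG replicate 1; Spp1 -2.80 to 0.018, Apoe -1.83 to 0.74 and Trem2 -2.03 to 0.16, all positive without IgG replicate 2. Without tumour-gene cells Top2a was 2.26 and Mmp12 -0.094. Mmp12 was -0.66 with the replicate block and -0.55 with the crossed pairing. Hspa1a in CD40 ran from -4.46 to 0.016 (without IgG replicate 2) and was 0.59 without doublets. Against Cxcl9-bearing cells, Spp1 and Apoe became -0.11 and -0.37 on all UMIs, while Spp1 was 2.00 without BP replicate 1. Against microglia-gene cells, Top2a was -0.051 unfiltered, and Arg1 0.20 with DESeq2, 0.049 and 0.075 without doublets, and -0.029 to 0.058 with a library left out. The causes were not tested. Libraries of 187510 to 276263 member UMIs (both IgG, BP replicate 2 and BPI) limit what could be seen for genes of few counts.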

Other observations

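Inflammatory genes differed between the BP libraries in members. The inflammatory list summed to 1776 and 3616 CPM in IgG, 9852 and 5071 in BP, 8292 in BPI, 2144 in CD40 and 1569 in UT, with Ccl8 supplying 8228 CPM of BP replicate 1. Of its 16 genes tested for BP against IgG, Ccl5 and Ccl8 rose with edgeR, beside 1.13% of all genes tested, and Ccl8, at 37.2 CPM in BP replicate 2, could not be tested without BP replicate 1. The hypoxia and glycolysis list moved less, from 1255 CPM in BP replicate 2 to 2581 in UT. The monocyte-derived list was at 246 CPM in IgG replicate 2 and at 1038 to 4638 in the other 6 libraries, so that the 2 IgG libraries, at 1429 and 246 CPM, differed more from each other than either BP library did from IgG replicate 1 on the log scale.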
